A study of Saccharomyces cerevisiae with 9 samples.

Results

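The genes described here are 9 genes of inositol and phospholipid synthesis in budding yeast, INO1, ITR1, CHO1, CHO2, OPI3, CKI1, INO2, INO4 and OPI1. They were chosen by gene name for their known roles, with earlier results of these data known, and each matched 1 of the 6256 genes on the arrays. Total RNA of a mutant strain and of a reference strain was labelled with opposite dyes, Cy3 and Cy5, and hybridised together on 2-colour Agilent arrays. The K123R strain (CY1272) carries Htb1_K123R, a histone H2B that has arginine at K123, together with htb2_delta0, the loss of the other H2B gene. It was compared with the wild type BY4742 on 2 arrays and with BY13026, which carries htb2_delta0 alone, on 3 arrays. The ubp8 strain (BY10809) carries ubp8_delta0, and the double mutant (CY1383) carries Htb1_K123R, htb2_delta0 and ubp8_delta0. Each of these was compared with BY4742 on 2 arrays. The comparison with the wild type therefore changes both H2B genes at once in the K123R strain and in the double mutant, whereas both strains of the comparison with htb2_delta0 lack HTB2. Each genotype is represented by 1 strain. The labels do not say whether the arrays shared 1 preparation of wild-type RNA, and the design text calls the arrays biological replicates. The growth medium, and with it the inositol and choline supplied to the cells, is not given in the sources used here.

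Yeast makes inositol from glucose 6-phosphate through inositol-3-phosphate synthase, the product of INO1, or takes it up from the medium through the transporter Itr1. Phosphatidylserine is formed from CDP-diacylglycerol and is turned by decarboxylation into phosphatidylethanolamine, which is then methylated to phosphatidylcholine. Many genes of the pathway carry a promoter element bound by the Ino2-Ino4 activator, and the repressor Opi1 acts through Ino2 when inositol is plentiful. On histone H2B, ubiquitin is attached at lysine K123 and is taken off by Ubp8 within the SAGA coactivator.

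Of the 9 genes, 1 passed the test in the K123R strain and 1 in the double mutant against wild type, where 21.1% and 19.9% of all genes did. Against htb2_delta0, 2 of the 8 that could be tested passed, where 27.8% of all genes did. The changes that passed were small. OPI3, which encodes the phospholipid methyltransferase that completes phosphatidylcholine, rose in the K123R strain and in the double mutant against wild type, by 1.24-fold and 1.15-fold. The call in the double mutant was lost without any single one of the 6 arrays against wild type, and that in the K123R strain without either of its own. CHO2, which encodes the enzyme of the first methylation, and CKI1, which encodes choline kinase, rose in the K123R strain against the htb2_delta0 strain, by 1.27-fold and 1.46-fold. None of the 9 passed the test in the ubp8 strain, where 2.83% of all genes did. In a fit that pairs the arrays by number, 5 of the 9 passed there, where 49.4% of all genes did. That fit called 4 of the 9 in both the K123R strain and the double mutant, where 66.2% and 65.4% of all genes passed. INO4 was among them, at log2 ratios of -0.36 and -0.28, the same values as in the fit without pairing, where it did not pass. A fit with the slide as a block, whose means are not averaged over the dye orientations, put INO4 at -0.24 and -0.01. INO1, the gene most often used as a readout of the Ino2-Ino4 system, did not pass in any of the 4 comparisons.

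The arrays against wild type were read at 10807 spots and those against htb2_delta0, which are of another array design, at 10789 spots. Signals stood well clear of background, with a ratio of the medians between 25.8 and 54.6 for Cy3 and between 43.3 and 65.4 for Cy5. The software marked 0.76% to 3.62% of spots as outliers on the arrays against wild type and 18.8% to 19% on those against htb2_delta0, and marked spots were left out. HTB2 had log2 ratios from -3.88 to -3.16 on the K123R and double mutant arrays against wild type, and UBP8 from -2.54 to -2.08 on the ubp8 and double mutant arrays, each low where its deletion is labelled. On the arrays against htb2_delta0, where both strains are labelled as lacking HTB2, its log2 ratios were -0.97, -0.06 and -0.71, and the cause was not tested. LEU2, an auxotrophic marker, stood at log2 ratios of 4.12 and 3.27 in the K123R strain against wild type and at -0.54, 0.14 and -0.56 against htb2_delta0. In the double mutant it stood at -0.16 and 0.06, so the K123R strain and the double mutant also differ at a marker that is not part of the named genotypes. HIS3, another such marker, stood at 3.87 and 2.47 in the K123R strain and at 3.32 and 2.39 in the double mutant against wild type, and at 3.47, 3.87 and 3.32 in the K123R strain against htb2_delta0, beside -0.16 and -0.27 in the ubp8 strain. The part of such marker differences in the results was not tested.

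Values are log2 ratios of mutant over reference strain, so that 1 unit is a doubling. Each is given with its standard error from a linear model (limma), and a gene is said to have risen or fallen only where its Benjamini-Hochberg adjusted p over all genes tested was below 0.05. For the arrays against wild type this model does not pair the arrays by number. A pairing fit, given below, called more genes, so not passing here is not evidence of no change. In the K123R strain against wild type, 1 of the 9 genes passed, where 21.1% of all 6250 genes tested did. In the ubp8 strain 0 of 9 passed (2 at an unadjusted p below 0.05), where 2.83% of all 6246 genes did. In the double mutant 1 of 9 passed, where 19.9% of all 6246 genes did. In the K123R strain against htb2_delta0, 2 of the 8 genes that could be tested passed, where 27.8% of all 5862 genes did. These shares are near or below those of the array as a whole. By direction, 10.9% of all genes rose and 10.1% fell in the K123R strain, 1.86% rose and 0.977% fell in the ubp8 strain, 9.78% rose and 10.2% fell in the double mutant, and 13.4% rose and 14.4% fell against htb2_delta0. The members that passed in these comparisons all rose. The median size of change, without its sign, was 0.07 for the 9 genes and 0.14 for all genes in the K123R strain, 0.10 and 0.09 in the ubp8 strain, 0.06 and 0.14 in the double mutant, and 0.21 and 0.21 in the K123R strain against htb2_delta0. With its sign, the median log2 ratio of the 9 genes was 0.02, -0.03 and 0.01 in the 3 comparisons with wild type and 0.12 against htb2_delta0. The signs were nearly balanced, with 6 positive and 3 negative in the K123R strain, 4 and 5 in the ubp8 strain, 5 and 4 in the double mutant, and 5 and 3 against htb2_delta0.

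**Figure D1:**
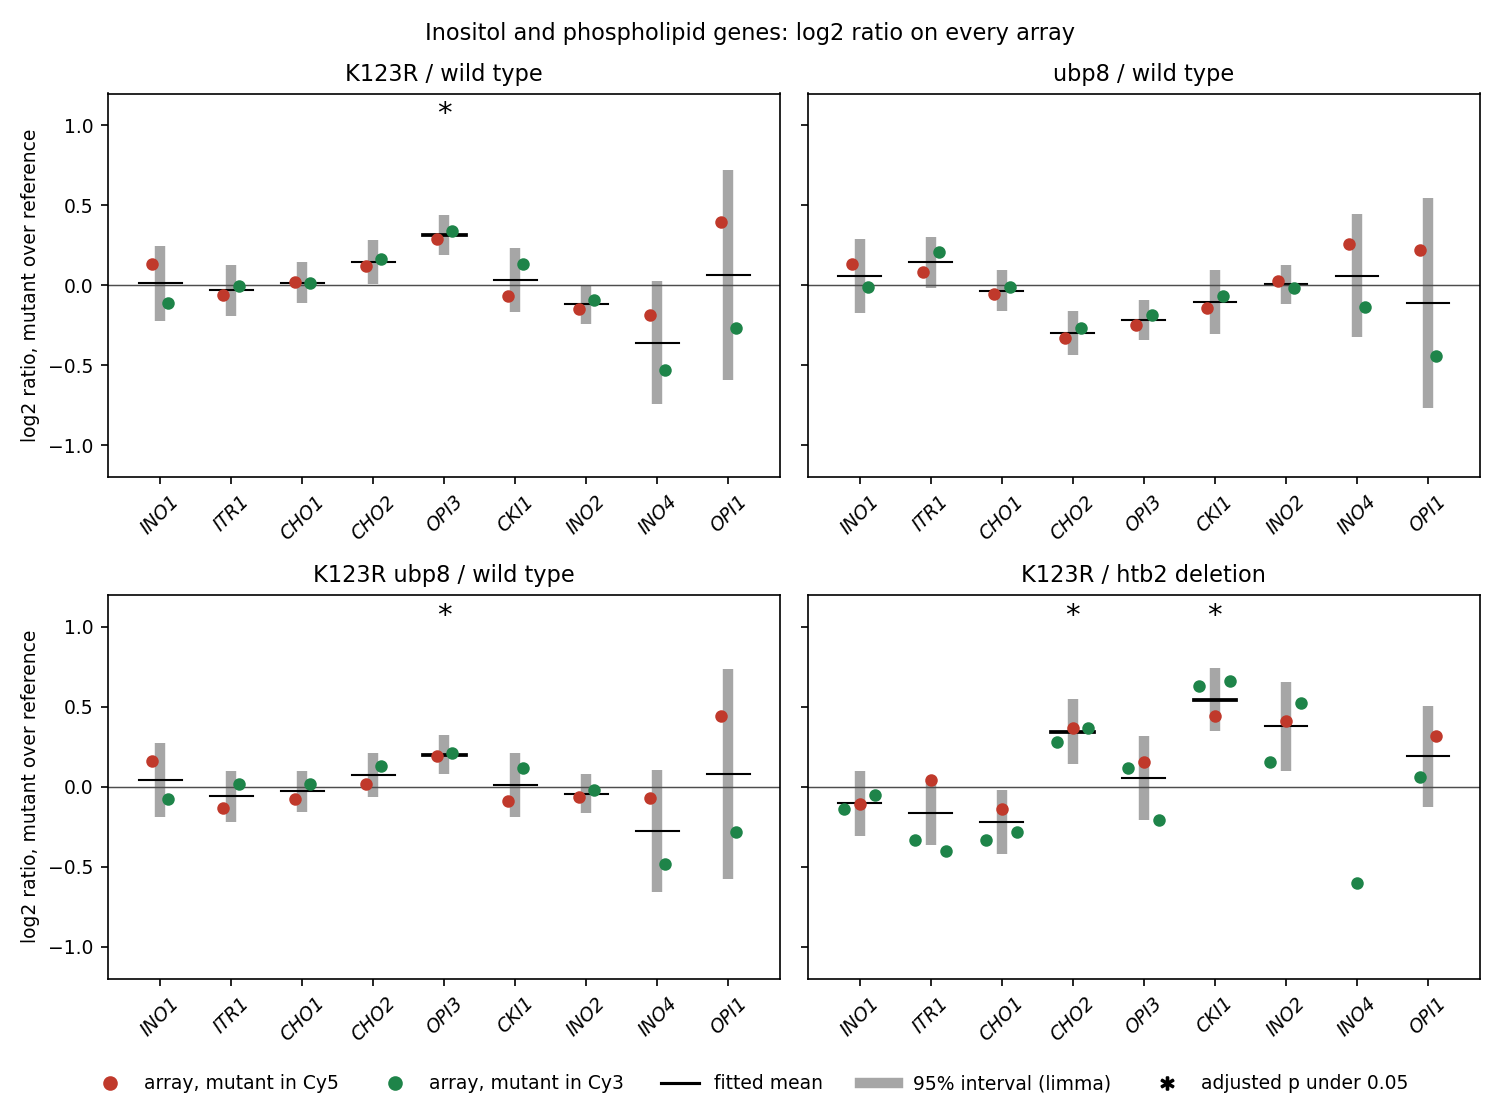
Log2 ratio of mutant over reference (vertical axis) for the 9 genes (horizontal axis) in the 4 comparisons, with 1 point per array coloured by the dye of the mutant, the fitted mean as a bar and its 95% interval from limma in grey; stars mark an adjusted p below 0.05. OPI3 is starred in the K123R strain and the double mutant, CHO2 and CKI1 against htb2_delta0, and the 2 dye orientations lie far apart for OPI1 and INO4.

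INO1 (YJL153C) had log2 ratios of 0.14 and -0.11 on the 2 K123R arrays, 0.13 and -0.01 on the ubp8 arrays, and 0.16 and -0.07 on the double mutant arrays. In each pair the array with the mutant in Cy5 was the higher and the other lay below 0. The means were 0.01 ± 0.09 (adjusted p = 0.937 by limma), 0.06 ± 0.09 (adjusted p = 0.795) and 0.04 ± 0.09 (adjusted p = 0.809). Against htb2_delta0 the arrays gave -0.14, -0.11 and -0.05, all below 0, for a mean of -0.10 ± 0.08 (adjusted p = 0.359). The 95% interval of the fold ran from 0.858 to 1.19 in the K123R strain, from 0.887 to 1.23 in the ubp8 strain, from 0.876 to 1.21 in the double mutant and from 0.809 to 1.07 against htb2_delta0. The normalised signal of INO1 lay between 128 and 166 in both strains on all 9 arrays, after an offset of 50 had been added. All of its spots were well above background in both colours. No alternative brought INO1 past the threshold, although its means moved. Against htb2_delta0 the mean was -0.28 with the software's processed signals (adjusted p = 0.0818 by limma), and in the double mutant it was 0.21 with median centring (adjusted p = 0.123). With the slide as a block, a fit whose means are not averaged over the dye orientations, it was 0.30 in the ubp8 strain (adjusted p = 0.102).

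ITR1 (YDR497C), the main inositol transporter, had log2 ratios of -0.06 and -0.0018 on the K123R arrays, 0.08 and 0.21 on the ubp8 arrays, and -0.14 and 0.02 on the double mutant arrays. Both ubp8 arrays were above 0, with a mean of 0.15 ± 0.06 (adjusted p = 0.271 by limma). Against htb2_delta0 the arrays gave -0.33, 0.04 and -0.40, so that the array with K123R in Cy5 stood apart from the other two. The mean there, fitted with a term for the dye because K123R was in Cy5 on array 2 only, was -0.16 ± 0.08 (adjusted p = 0.171). Without that array the mean was -0.37 and passed (adjusted p = 0.0368), on arrays that then share 1 dye orientation.

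CHO1 (YER026C) encodes phosphatidylserine synthase, which opens the branch toward phosphatidylcholine. Its log2 ratios on the 6 arrays against wild type lay between -0.07 and 0.02, and the 3 fitted means lay between -0.03 and 0.02. With standard errors of 0.05, the 95% interval of the fold ran from 0.927 to 1.11 in the K123R strain, from 0.895 to 1.07 in the ubp8 strain and from 0.897 to 1.07 in the double mutant. Against htb2_delta0 CHO1 had -0.34, -0.14 and -0.28, below 0 on each of the 3 arrays. The mean of -0.22 ± 0.08 did not pass (adjusted p = 0.0882).

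CHO2 (YGR157W) encodes the methyltransferase that turns phosphatidylethanolamine into its monomethyl form. Its log2 ratios were 0.12 and 0.17 on the K123R arrays, -0.33 and -0.27 on the ubp8 arrays, and 0.02 and 0.13 on the double mutant arrays. The ubp8 arrays lay below 0 and below all arrays of the other strains, a separation whose share over all genes was not counted. The mean in the ubp8 strain was -0.30 ± 0.05 (adjusted p = 0.0570 by limma), which put CHO2 among the lowest 2.67% of genes tested. In the K123R strain the mean was 0.15 ± 0.05 (adjusted p = 0.115), and in the double mutant 0.07 ± 0.05 (adjusted p = 0.386). Against htb2_delta0 the arrays gave 0.28, 0.36 and 0.37, all above 0 and close together. CHO2 rose in that comparison by 0.34 ± 0.08, or 1.27-fold with a 95% interval from 1.1 to 1.46 (adjusted p = 0.0366). This call was lost without array 1 (0.37, adjusted p = 0.134) or without array 3 (0.32, adjusted p = 0.0892).

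OPI3 (YJR073C) encodes the enzyme of the last methylations to phosphatidylcholine. Its log2 ratios were 0.29 and 0.34 on the K123R arrays, 0.19 and 0.21 on the double mutant arrays, and -0.25 and -0.19 on the ubp8 arrays. The ranges of the 3 strains did not overlap. How many of all genes separate in this way, with few arrays per strain, was not counted, so no weight rests on it. In signal, the K123R arrays read 12560 against 10282 in wild type and 14178 against 11207, and the ubp8 arrays read 9180 against 10896 and 10716 against 12191. OPI3 rose by 0.31 ± 0.05 in the K123R strain (adjusted p = 0.0135 by limma), or 1.24-fold with a 95% interval from 1.14 to 1.35. It rose by 0.20 ± 0.05 in the double mutant (adjusted p = 0.0437), or 1.15-fold with an interval from 1.06 to 1.25. The ubp8 mean was -0.22 ± 0.05 and did not pass (adjusted p = 0.0863).

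The call of OPI3 in the K123R strain was lost without K123R array 1 (adjusted p = 0.129) or K123R array 2 (adjusted p = 0.169). The call in the double mutant was lost without any single one of the 6 arrays (adjusted p from 0.0900 to 0.251), with the slide as a block (0.18, adjusted p = 0.108) and with median centring in place of loess (adjusted p = 0.110). Against htb2_delta0 the arrays of OPI3 gave 0.12, 0.16 and -0.21. Array 3, which was on another slide, lay below 0 and the other two above, and 1 of the 2 OPI3 spots was used on each. The fitted mean of 0.06 ± 0.10 did not pass (adjusted p = 0.698). Its 95% interval from -0.21 to 0.32 includes 0 and, only near its upper limit, the K123R value of 0.31 seen against wild type.

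CKI1 (YLR133W) encodes choline kinase, the entry of free choline into the CDP-choline route to phosphatidylcholine. Its log2 ratios were -0.07 and 0.13 on the K123R arrays, -0.14 and -0.06 on the ubp8 arrays, and -0.09 and 0.12 on the double mutant arrays. The K123R and double mutant arrays lie on both sides of 0, and none of the 3 means, 0.03, -0.10 and 0.01, passed (adjusted p of 0.809, 0.543 and 0.935 by limma). Against htb2_delta0 the arrays gave 0.63, 0.44 and 0.66, all well above 0. In signal, K123R read 2171 against 1405, 2183 against 1606, and 2782 against 1757, so that K123R was the brighter on every array. CKI1 rose there by 0.54 ± 0.08 (adjusted p = 0.0176), or 1.46-fold with a 95% interval from 1.27 to 1.67, and stood above 95.4% of the genes tested. Without array 1 the mean was 0.55 and did not pass (adjusted p = 0.0558). CHO2 and CKI1 have 1 spot per array, whereas the other 7 genes have 2.

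**Figure D2:**
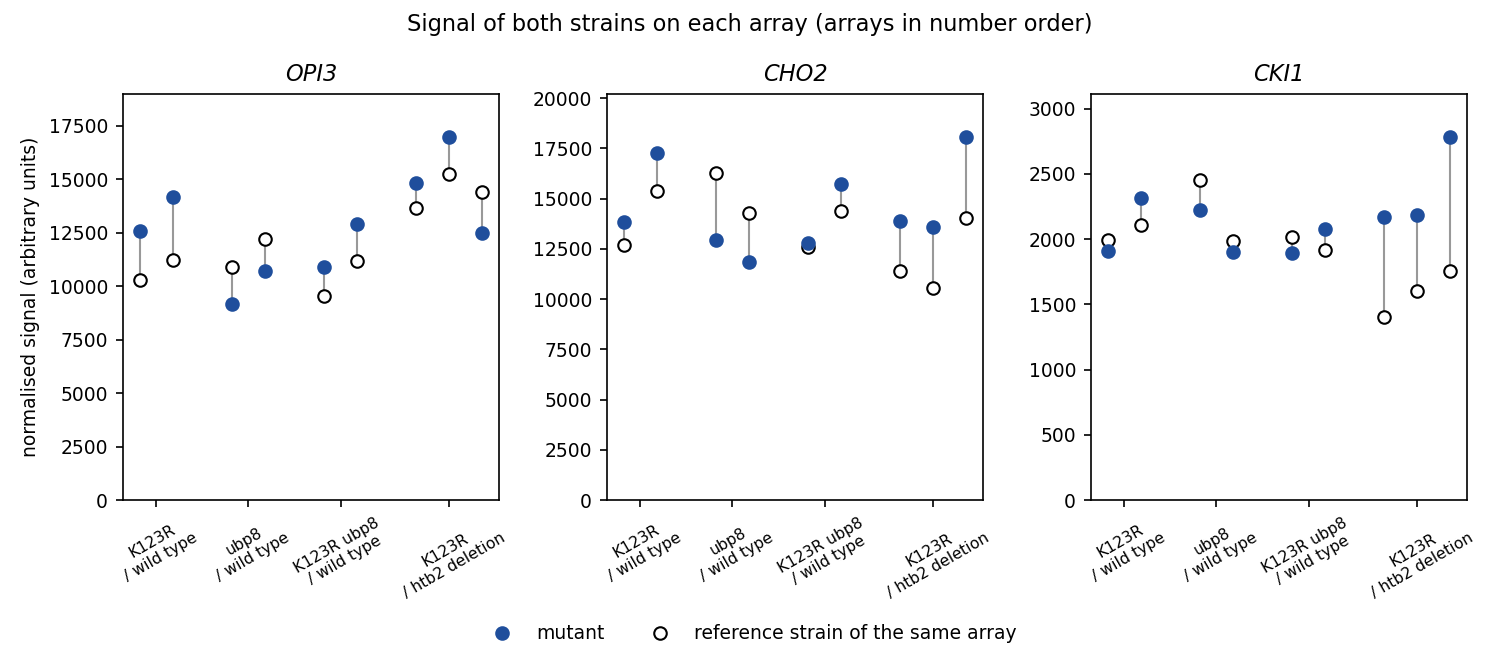
Normalised signal in arbitrary units (vertical axis, from 0) of OPI3, CHO2 and CKI1 in the mutant (filled) and in the reference strain of the same array (open), joined by a line, for each of the 9 arrays. For OPI3 the mutant is the brighter in the K123R and double mutant pairs and the dimmer in the ubp8 pair, and for CKI1 the gap is widest on the 3 arrays against htb2_delta0.

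INO2 (YDR123C) and INO4 (YOL108C) encode the subunits of the activator. INO2 had log2 ratios of -0.14 and -0.09 on the K123R arrays, 0.03 and -0.01 on the ubp8 arrays, and -0.06 and -0.02 on the double mutant arrays. Both K123R arrays were below 0, with a mean of -0.12 ± 0.05 (adjusted p = 0.150 by limma). Against htb2_delta0 the arrays gave 0.16, 0.41 and 0.52, all above 0 but widely spread. The mean of 0.38 ± 0.10 did not pass (adjusted p = 0.0579). It did pass under 5 of 11 alternatives, among them the software's own processed signals (0.51, adjusted p = 0.0199) and a fit without a dye term (0.36, adjusted p = 0.0372). INO4 had -0.18 and -0.53 on the K123R arrays, 0.26 and -0.14 on the ubp8 arrays, and -0.07 and -0.48 on the double mutant arrays. In each pair the array with the mutant in Cy3 was the lower. The INO4 means of -0.36 ± 0.15 in the K123R strain and -0.28 ± 0.15 in the double mutant did not pass (adjusted p of 0.159 and 0.258). Against htb2_delta0 only array 1 kept an INO4 spot, at -0.60, and no test was made. With marked spots kept, its arrays read -0.63, -0.13 and -1.04, all below 0, and the mean of -0.48 ± 0.11 passed (adjusted p = 0.0198).

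OPI1 (YHL020C), the repressor of the system, had log2 ratios of 0.40 and -0.27 on the K123R arrays, 0.22 and -0.44 on the ubp8 arrays, and 0.44 and -0.28 on the double mutant arrays. In all 3 strains the array with the mutant in Cy5 was above 0 and the array with it in Cy3 was below. The means of 0.07, -0.11 and 0.08 had a standard error of 0.26 each, and their 95% intervals reached from -0.76 to 0.74. In fold, these limits are 0.589 and 1.67, so that smaller changes of OPI1 were not detectable in this fit. Against htb2_delta0, arrays 1 and 2 gave 0.06 and 0.32, and array 3 had no usable spot. Their mean of 0.19 ± 0.16 rests on these arrays alone, with no dye term, and did not pass (adjusted p = 0.348).

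The arrays of a pair differ in dye orientation and are also separate replicates, and these cannot be told apart within a pair. The array with the mutant in Cy5 minus the array with it in Cy3 was 0.66, 0.66 and 0.72 for OPI1 in the K123R, ubp8 and double mutant pairs. This gap was larger than in 99.4% of genes and nearly the same in each pair. It averaged 0.39 for INO4 (larger than in 91.5% of genes) and 0.21 for INO1. For OPI3 the gap averaged -0.04, for CHO2 -0.07 and for INO2 -0.02, where the median size over all genes was 0.14. Because the array number is also the dye orientation, the numbers pair the arrays across strains, and a fit with the array number as a block was also made.

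**Figure D3:**
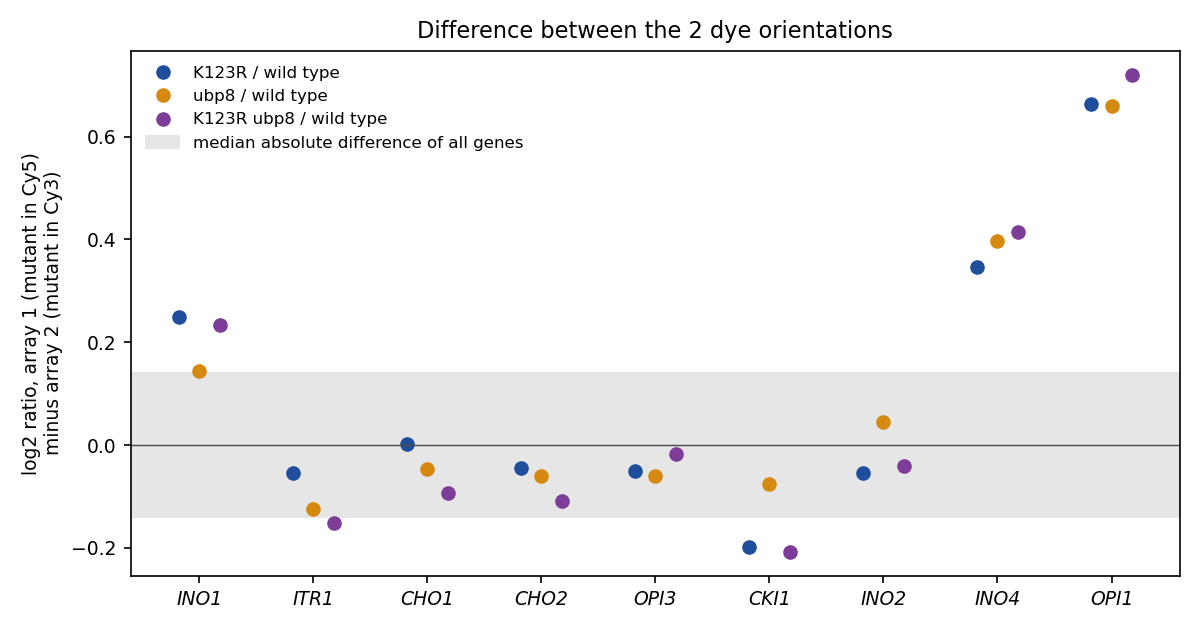
Log2 ratio on the array with the mutant in Cy5 minus that on the array with it in Cy3 (vertical axis) for the 9 genes (horizontal axis) in the 3 comparisons with wild type, with the grey band at the median absolute difference of all genes. OPI1 lies between 0.66 and 0.72 in the 3 pairs, and CHO1, CHO2, OPI3 and INO2 lie inside the band.

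With the array number as a block, 4 of the 9 genes passed in the K123R strain, where 66.2% of all genes did, and 5 in the ubp8 strain, where 49.4% did. In the double mutant 4 passed, where 65.4% of all genes did. Such shares leave the counts of the 9 genes near or below the background. In the K123R strain the block added CHO2 (adjusted p = 0.00366 by limma), INO2 (adjusted p = 0.0126) and INO4 (adjusted p = 1.33e-04) to OPI3. In the ubp8 strain it gave CHO2 at -0.30 (adjusted p = 7.38e-04), OPI3 at -0.22 (adjusted p = 0.00153), ITR1 at 0.15 (adjusted p = 0.00832), OPI1 at -0.11 (adjusted p = 0.0170) and CKI1 at -0.10 (adjusted p = 0.0423). In the double mutant it added INO4 at -0.28 (adjusted p = 3.21e-04), OPI1 at 0.08 (adjusted p = 0.0358) and CHO2 at 0.07 (adjusted p = 0.0461). INO1 and CHO1 passed in none of the 3 strains with or without the block. Another fit took the slide as the block and was added after seeing the data. Its means are levels on the slide of K123R array 1 and double mutant array 1. Both arrays had the mutant in Cy5, so these means are not averaged over the dye orientations and are not comparable with those above. That fit gave other values for several of these genes. In the ubp8 strain it put OPI1 at 0.58 (adjusted p = 0.0633), the opposite sign, and ITR1 at 0.04 (adjusted p = 0.792). CHO2 at -0.37 (adjusted p = 0.0642), OPI3 at -0.25 (adjusted p = 0.137) and CKI1 at -0.31 (adjusted p = 0.0934) did not pass there either. In the double mutant it put INO4 at -0.01 (adjusted p = 0.906), OPI1 at 0.54 (adjusted p = 0.0133), and CHO2 at 0.02 (adjusted p = 0.838). In the K123R strain OPI3 still passed (0.30, adjusted p = 0.0283), whereas INO4 at -0.24 (adjusted p = 0.0868), CHO2 at 0.12 (adjusted p = 0.256) and INO2 at -0.15 (adjusted p = 0.178) did not.

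The strains were also set against each other through wild type. The K123R strain was above the ubp8 strain by 0.53 ± 0.07 for OPI3, or 1.44-fold (adjusted p = 0.0215 by limma), and by 0.44 ± 0.08 for CHO2, or 1.36-fold (adjusted p = 0.0362). These were 2 of the 9 genes, where 8.47% of all genes passed and 3.81% were higher. Both methyltransferases of phosphatidylcholine synthesis thus differed between the strains by more than the error of this fit. The double mutant was above the ubp8 strain by 0.42 ± 0.07 for OPI3, or 1.34-fold (adjusted p = 0.0406), and by 0.37 ± 0.08 for CHO2, which did not pass (adjusted p = 0.0516). OPI3 was the only one of the 9 genes to pass there, where 6.87% of all genes did and 2.87% were higher. All 3 of these calls were lost without any single one of the 6 arrays, and with median centring the call of CHO2, and that of OPI3 in the double mutant, were lost as well. With the array number as a block, 7 of the 9 genes passed for K123R against ubp8, where 56.5% of all genes did, and 5 for the double mutant against ubp8, where 54.6% did.

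No difference between the double mutant and the K123R strain passed among the 9 genes in limma, with 0 at an unadjusted p below 0.05. Of all genes 0% passed and 44 of 6246 had an unadjusted p below 0.05. The difference was -0.11 ± 0.07 for OPI3, with a 95% interval from -0.29 to 0.06, and -0.07 ± 0.08 for CHO2, with an interval from -0.26 to 0.12. The fit counts as error the deviation that same-numbered arrays share, which cancels in this difference, and its errors are moderated over all genes. For OPI3 and CHO2 themselves the gap between the arrays of a pair was small, averaging -0.04 and -0.07. The part of each in the width of these intervals was not tested. With the array number as a block, the errors were 0.035 for OPI3 and 0.037 for CHO2. None of the 9 passed in that fit (adjusted p of 0.751 for OPI3 and 0.862 for CHO2 by limma), beside 0.224% of all genes. An excess or shortfall of the double mutant against both single changes added together was called by limma for none of the 9 genes, with 0 at an unadjusted p below 0.05. Over all genes 0% were called and 469 of 6244 had an unadjusted p below 0.05. It was 0.23 ± 0.09 for CHO2 (adjusted p = 0.676 by limma) and 0.10 ± 0.08 for OPI3 (adjusted p = 0.937). With the array number as a block the departure of CHO2 passed (adjusted p = 0.0251), as did that of 20.7% of all genes.

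The neighbouring steps were read from 5 lists of genes. Of 26 other genes of phospholipid synthesis, 4 fell and 0 rose in the K123R strain, and the same counts held in the double mutant. Of all genes 10.1% fell in the K123R strain and 10.2% in the double mutant, with 21.1% and 19.9% passing in either direction. ECT1, which encodes the enzyme that forms CDP-ethanolamine, had log2 ratios of -0.56 and -0.53 on the K123R arrays and fell by 0.55 ± 0.05 there (adjusted p = 0.00351 by limma). In the double mutant ECT1 fell by 0.50 ± 0.05 (adjusted p = 0.00475). EPT1, the transferase that uses this product, had -0.44 and -0.35 on the K123R arrays and fell by 0.40 ± 0.06 (adjusted p = 0.0123), with a like fall by 0.39 ± 0.06 where UBP8 was also deleted (adjusted p = 0.0130). Against htb2_delta0, ECT1 fell by 0.43 ± 0.09 (adjusted p = 0.0321) and EPT1 by 0.45 ± 0.08 (adjusted p = 0.0236). EKI1, the ethanolamine kinase at the start of the same route, passed in none of these comparisons, with -0.09 in the K123R strain (adjusted p = 0.268) and -0.11 against htb2_delta0 (adjusted p = 0.344). DGK1, the diacylglycerol kinase, fell by 0.33 and 0.31 in the K123R strain and the double mutant, and PGS1, of phosphatidylglycerol synthesis, by 0.21 and 0.20. The ubp8 strain had 1 gene of this list that fell, GPT2, an acyltransferase of the first step, by 0.36 ± 0.05 (adjusted p = 0.0426).

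Against htb2_delta0, 25 genes of the same list could be tested, of which 2 rose and 4 fell, where 13.4% of all genes rose and 14.4% fell. CPT1, the cholinephosphotransferase that ends the CDP-choline route that Cki1 opens, had -0.37, -0.39 and -0.45 on the 3 arrays and fell by 0.40 ± 0.08 (adjusted p = 0.0282 by limma). CKI1 rose in that comparison, and PCT1, which encodes the enzyme between them, was at 0.02 and did not pass (adjusted p = 0.890). URA7, CTP synthase, rose by 0.42 ± 0.16 (adjusted p = 0.0386), from 2 arrays at 0.35 and 0.50 and an error common to the genes that lack an array. The p-values of such genes use pooled degrees of freedom and are not comparable with those of genes on 3 arrays. CDS1, which forms the CDP-diacylglycerol used by Cho1, rose by 0.33 ± 0.08 (adjusted p = 0.0396), and GEP4, a phosphatase of cardiolipin synthesis, fell by 0.31 ± 0.08 (adjusted p = 0.0486). The list's median log2 ratio was -0.10 in the K123R strain, -0.06 in the ubp8 strain, -0.10 in the double mutant and -0.17 against htb2_delta0, where the medians of all genes lay between -0.01 and 0.00062.

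Of 14 other genes of inositol uptake and handling, 2 fell and 0 rose in the K123R strain, 0 of 14 passed in the ubp8 strain (4 at an unadjusted p below 0.05), and 2 of 13 fell in the double mutant. Against htb2_delta0, 3 of 12 fell. Of all genes, 10.1% fell in the K123R strain, 10.2% in the double mutant and 14.4% against htb2_delta0. IPT1, which adds inositol phosphate to sphingolipids, had -0.58 and -0.44 on the K123R arrays and fell by 0.51 ± 0.07 (adjusted p = 0.0102 by limma). Its level in the double mutant fell by 0.42 ± 0.07 (adjusted p = 0.0173) and its level in the K123R strain fell by 0.81 ± 0.08 against htb2_delta0 (adjusted p = 0.00932), with -0.89, -0.75 and -0.83 on the arrays. ITR2, the minor inositol transporter, fell by 0.31 ± 0.05 in both the K123R strain (adjusted p = 0.0154) and the double mutant (adjusted p = 0.0161), and by 0.43 ± 0.08 against htb2_delta0 (adjusted p = 0.0243). ITR1 passed in none of these comparisons. SCS3, which is needed for growth without inositol, fell by 0.45 ± 0.08 against htb2_delta0 (adjusted p = 0.0223).

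Of 12 genes of fatty acid synthesis, which supplies the acyl chains of phospholipids, 4 fell and 1 rose in the K123R strain, and 5 fell and 0 rose in the double mutant. Of all genes, 10.1% fell and 10.9% rose in the K123R strain, and 10.2% fell in the double mutant. ELO1, a fatty acid elongase, had -0.69 and -0.74 on the K123R arrays, and fell by 0.71 ± 0.05 there (adjusted p = 0.00302 by limma), while in the double mutant it fell by 0.61 ± 0.05 (adjusted p = 0.00394). It fell by 0.87 ± 0.13 against htb2_delta0 (adjusted p = 0.0194). FAA1, a fatty acid activating enzyme, fell by 0.65 ± 0.06 in the K123R strain (adjusted p = 0.00403), and in the double mutant it fell by 0.58 ± 0.06 (adjusted p = 0.00560). It fell by 0.40 ± 0.16 against htb2_delta0 (adjusted p = 0.0475), from arrays 1 and 3 alone, which share 1 dye orientation, and with that common error. The genes of the 2 subunits of fatty acid synthase also fell in the K123R strain and the double mutant, FAS1 by 0.48 and 0.55 and FAS2 by 0.26 and 0.31. Against htb2_delta0 neither passed, with FAS1 at -0.02 ± 0.14 (adjusted p = 0.933) from arrays at -0.47, 0.13 and 0.13, and FAS2 at 0.05 ± 0.13 (adjusted p = 0.789). OLE1, the desaturase gene, fell in the double mutant by 0.37 ± 0.07 (adjusted p = 0.0228). PHS1, a dehydratase of elongation, rose by 0.23 ± 0.06 in the K123R strain (adjusted p = 0.0475). In the ubp8 strain 0 of 12 passed (2 at an unadjusted p below 0.05), and against htb2_delta0 2 of 10 fell, where 14.4% of all genes did.

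Of 10 other regulators of INO1, 1 rose and 0 fell in the K123R strain, likewise in the double mutant, and 3 rose and 0 fell against htb2_delta0. Of all genes, 10.9%, 9.78% and 13.4% rose in these comparisons, and 27.8% passed in either direction against htb2_delta0. In the ubp8 strain 0 of 10 passed (4 at an unadjusted p below 0.05). SIN3, a corepressor subunit that acts at INO1, had 0.26 and 0.35 on the K123R arrays and rose by 0.31 ± 0.06 (adjusted p = 0.0278 by limma), and in the double mutant it rose by 0.28 ± 0.06 (adjusted p = 0.0368). It rose by 0.72 ± 0.16 against htb2_delta0 (adjusted p = 0.00137), from arrays 1 and 3 alone at 0.59 and 0.85, which share 1 dye orientation, and with that common error. The p-value of SIN3 there is therefore not comparable with those of TUP1 and REG1. TUP1, a general corepressor, rose against htb2_delta0 by 0.70 ± 0.10 (adjusted p = 0.0176), and REG1, a subunit of the phosphatase that opposes the kinase Snf1, by 0.52 ± 0.09 (adjusted p = 0.0215). Of 12 genes of the unfolded protein response, which is tied to INO1 control in yeast through Ire1 and Hac1, 2 fell and 0 rose in the K123R strain and in the double mutant, where 10.1% and 10.2% of all genes fell. HAC1 had -0.62 and -0.26 on the K123R arrays and fell by 0.44 ± 0.09 (adjusted p = 0.0295), and in the double mutant it fell by 0.51 ± 0.09 (adjusted p = 0.0215). SIL1, a nucleotide exchange factor of the endoplasmic reticulum, fell by 0.32 and 0.31 in these strains and by 0.54 ± 0.08 against htb2_delta0 (adjusted p = 0.0176), where 2 of 10 fell beside 14.4% of all genes, the other being ERO1 at -0.37. In the ubp8 strain 0 of 12 passed (2 at an unadjusted p below 0.05).

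**Figure D4:**
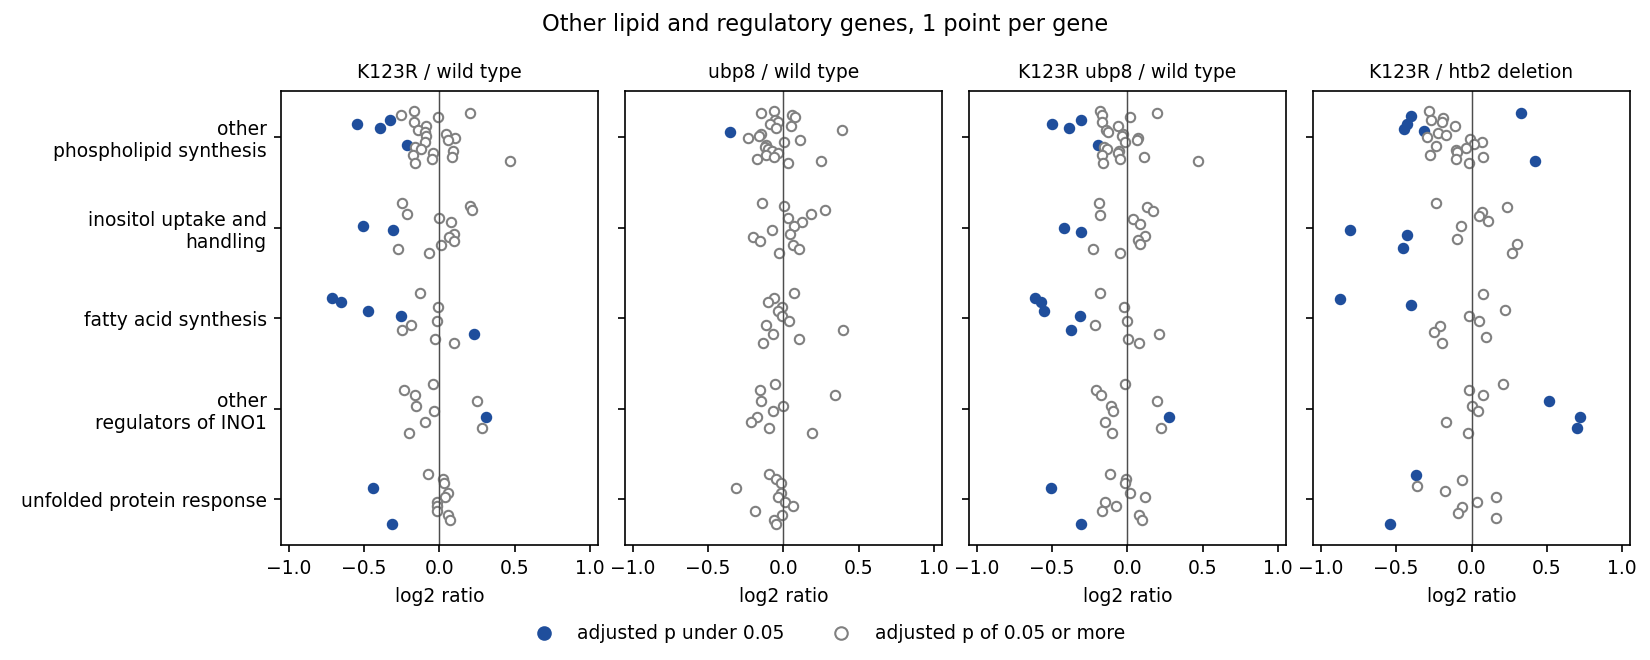
Log2 ratio (horizontal axis) of each gene of the 5 neighbouring lists in the 4 comparisons, with 1 point per gene, filled where the adjusted p was below 0.05. Filled points lie mostly to the left of 0 in the K123R and double mutant panels for the phospholipid, inositol and fatty acid lists, and 1 point is filled in the ubp8 panel.

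The genes that flank the 9 on the chromosome, in the RefSeq gene order, were read as well. In the K123R strain 5 of 16 flanking genes passed, in the ubp8 strain 1 of 16, in the double mutant 4 of 16, and against htb2_delta0 5 of 16. Of all genes, 21.1%, 2.83%, 19.9% and 27.8% passed in these comparisons. AIM17, which lies beside OPI1, fell in each comparison, by 0.86, 0.45, 0.79 and 0.69 in the K123R strain, the ubp8 strain, the double mutant and against htb2_delta0 (adjusted p of 0.00302, 0.0364, 0.00394 and 0.0132 by limma). NPA3 and MOG1 flank OPI3 on either side. NPA3 rose by 0.20 (adjusted p = 0.0415) in the K123R strain and by 0.27 (adjusted p = 0.0188) in the double mutant, and MOG1 rose by 0.25 (adjusted p = 0.0247) in the K123R strain, so that OPI3 and both its neighbours were higher there. In the ubp8 strain OPI3 was at -0.22, NPA3 at 0.19 and MOG1 at -0.09, and none passed. Against htb2_delta0 OPI3 was at 0.06, NPA3 at 0.34 and MOG1 at 0.12, again with none passing. MTR3, beside CHO2, rose by 0.31, 0.30 and 0.39 in the K123R strain, the double mutant and against htb2_delta0.

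Across the 9 arrays INO1 varied little, with an SD of 0.12 in its log2 ratio. Among the 954 genes with a value on all 9 arrays and an SD of at least 0.3, those with log2 ratios most like INO1 were RIM4 (Pearson r = 0.94), YOR062C (0.93), SPO21 (0.91), YNR014W (0.91) and GIP2 (0.90). RIM4 and SPO21 are genes of meiosis and spore formation. These correlations are a description over arrays that share strains, platform and dye orientations, and INO1 itself moved within its error.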

How the data were processed

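RNA was purified with a silica matrix, linearly amplified and given Cy3 or Cy5, per the labels' protocols. Agilent Feature Extraction supplied each spot's intensity, in a later version for the arrays against htb2_delta0 than for the others, per the file headers. Deposited with the series are log10 ratios of mutant over reference, and 92031 of 92190 of them lay within 1e-04 of the log10 ratio of the software's processed signals. Their column medians lay between -0.00603 and 0.00371.

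The values reported were computed from the mean intensity and median background of the deposited scanner files in R 4.3.3 with limma 3.58.1 (normexp, offset 50, loess within each array). Control spots and spots marked as outliers were left out, and spots of a gene were averaged. A gene was tested if well above background in either colour on at least 3 of 6 wild-type arrays, or 2 of 3 htb2_delta0 arrays. The 6 arrays against wild type entered 1 fit with a mean per mutant and 3 residual degrees of freedom. The 3 arrays against htb2_delta0 were fitted with a dye term and 1 residual degree of freedom. There, 548 tested genes lacking an array were fitted by their mean, with an error that moderation made common to them. Their tests use degrees of freedom pooled over these genes, so their p-values are not comparable with those of genes on 3 arrays. Adjustment was by Benjamini-Hochberg over all genes tested, at 0.05. The number of arrays limits the precision.

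Same-numbered arrays share their dye orientation and deviated together, with a correlation across 6256 genes of 0.886 for K123R and ubp8, 0.865 for K123R and the double mutant, and 0.867 for ubp8 and the double mutant. The numbers were therefore taken as pairing the arrays, and p-values of the fit without this block are approximate. That fit counts the shared deviation as error and called 1317, 177 and 1246 genes in the K123R, ubp8 and double mutant comparisons. With the block, 4135, 3088 and 4086 genes were called. The standard error of OPI1 was 0.26 without the block and 0.03 with it. Per the file headers, the arrays against wild type lay on 3 slides of 2 arrays, each holding 2 strains.

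The members, the 5 lists and the tests were chosen with earlier results of these data known. A further gene of the chosen set is not reported here. All 9 members are named in each direct comparison, with up to 6 passing genes of each list by adjusted p, the 5 genes most like INO1, and flanking genes. Flanking genes singled out were chosen after their values were seen. Of 6256 systematic names, 5756 matched a RefSeq locus tag of assembly R64, the 9 members among them. The files name no genome build, so no coordinates are given. The models were tested on simulated data.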

Additional observations from a re-analysis of the deposited data

Results flagged for a closer look

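For OPI3, the change in the K123R strain exceeded that in the ubp8 strain by 0.53 on the log2 scale, and the change in the double mutant exceeded it by 0.42, both by a test of the difference. For CHO2, the change in the K123R strain exceeded that in the ubp8 strain by 0.44, by the same test. These calls were lost when any single array against wild type was left out. With median centring, those of CHO2 and of OPI3 in the double mutant were lost as well. Neither gene passed in the ubp8 strain against wild type in the main fit.

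CHO1 and INO2 had opposite signs in the K123R strain on every array of its 2 comparisons. The mean of CHO1 was 0.019 against wild type and -0.25 against htb2_delta0, and that of INO2 was -0.12 against wild type and 0.36 against htb2_delta0, both as plain means over arrays. The CHO1 mean against wild type lay within its error of 0.05, so its sign carries no weight. In the main fits neither gene passed in either comparison (limma, adjusted p of 0.839 and 0.0882 for CHO1, 0.150 and 0.0579 for INO2). The arrays of these comparisons are of different array designs, were read with different software versions and have different reference strains. The difference itself was not tested.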

How the results depend on the processing

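Of 518 values of the 9 genes in the direct comparisons under alternatives, 484 kept their call, 15 lost it, 19 gained it and none turned direction while called. A further count of 22, within the 484, changed sign while passing in neither setting. Without 1 array at a time, 0 to 1 of the 9 genes passed in the K123R strain, 0 in the ubp8 strain, 0 in the double mutant, 0 to 3 against htb2_delta0, and 0 in each contrast. Over all genes the counts were then 34 to 886, 0 to 8, 3 to 828 and 508 to 1897. With the array number as a replicate block (2 residual degrees of freedom), 4, 5 and 4 of the 9 passed in the K123R, ubp8 and double mutant comparisons, 5 and 7 in the double mutant and the K123R strain against ubp8, and 1 for the departure from the sum, with 4135, 3088 and 4086 of all genes in the 3 direct comparisons. Beyond the calls printed in the results, the contrasts gained under the block were those of ITR1, INO4 and OPI1 against ubp8 in both strains, CHO2 in the double mutant, and CKI1 and INO2 in the K123R strain, and the block changed no other call. With each comparison's own 2 arrays fitted alone, 2 passed in the K123R strain (INO4 being added, adjusted p = 0.0437) and 0 in the double mutant. With the software's processed signals 0 passed in the double mutant (OPI3 at an adjusted p of 0.050005), and 85 of all genes passed in the ubp8 strain, where the deposited values gave 80. With median centring, 0 passed in the double mutant, 0 in the double mutant against ubp8 and 1 in K123R against ubp8. With no background subtraction, 2 passed in the double mutant against ubp8. With marked spots kept, 4 passed against htb2_delta0. The slide as a block, chosen after seeing the data, left 1 residual degree of freedom. In that fit the direct means are levels on 1 slide, the baseline, and are not averaged over the dye orientations. The slide fit gave 343 of all genes in the ubp8 strain and 2109 in the double mutant, where OPI1 passed (0.54, adjusted p = 0.0133) and OPI3 did not, and 3 of the 9 in both the double mutant and K123R against ubp8. Beyond the baseline of the slide fit, the cause of these shifts was not tested, except that leaving out arrays leaves fewer degrees of freedom. A random slide effect for the arrays against htb2_delta0 could not be estimated from 3 arrays. With an offset of 10 in place of 50, the mean of INO1 against htb2_delta0 moved to -0.13 and that of INO2 to 0.44 (adjusted p = 0.0240).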
